A study of Mus musculus with 6 samples.

Results

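The genes described are the cytosolic and mitochondrial aminoacyl-tRNA synthetases of the mouse together with *Aimp1*, *Aimp2* and *Eef1e1*, which encode the scaffold proteins of the multi-tRNA synthetase complex. They were chosen by gene name, and all 39 were found among the 53084 genes of the count table and entered the test over 15075 genes. Muscle RNA was sequenced from 3 *Tarsl2*+/+ (WT) and 3 *Tarsl2*-/- (KO) mice, all male, C57BL/6, 6 weeks old, kept in an SPF animal room on standard chow, with 1 library per mouse. The *Tarsl2*-/- mice carry a CRISPR/Cas9 deletion of a genomic fragment holding exon 3 of *Tarsl2*, from a line made in C57BL/6J zygotes, and the *Tarsl2*+/+ mice carry no engineered allele. Which muscle was taken is not given in the sources used here, and 1 of the *Tarsl2*-/- libraries, from mouse 589, carries a title (KOT1) that differs in form from the other titles. The labels do not say whether the mice of a group came from separate litters, so that p-values measure the spread between these 6 mice.

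Aminoacyl-tRNA synthetases attach each amino acid to its tRNA, the step that fixes the meaning of a codon. Most mammalian cells hold a cytosolic set and a mitochondrial set encoded by separate nuclear genes, and several of the cytosolic enzymes are held together with the scaffolds in the multi-tRNA synthetase complex. Threonine is unusual, because vertebrates carry, besides the cytosolic *Tars* and the mitochondrial *Tars2*, the *Tars* paralog *Tarsl2*, which has its own N-terminal extension and is expressed in muscle. The comparison of *Tarsl2*-/- with *Tarsl2*+/+ muscle sets the mRNA levels of the other synthetases and scaffolds side by side with and without an intact *Tarsl2*.

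The deleted exon is shown with its counterpart in *Tars*, because both genes are counted from short reads and the 2 exons show how far apart their sequences are. In GRCm38 coordinates *Tarsl2* is at chr7:65644898-65692091 (plus strand) and *Tars* at chr15:11383663-11399658 (minus strand), and the main annotated transcript of each has 19 exons. Exon 3 is coding throughout and has 191 bases in either gene, at chr7:65647478-65647668 in *Tarsl2* and at chr15:11394224-11394414 in *Tars*. Both are printed 5′ to 3′ on the coding strand, and capitals mark the 86 bases (45.0%) that are identical at the same position.
Tarsl2 exon 3: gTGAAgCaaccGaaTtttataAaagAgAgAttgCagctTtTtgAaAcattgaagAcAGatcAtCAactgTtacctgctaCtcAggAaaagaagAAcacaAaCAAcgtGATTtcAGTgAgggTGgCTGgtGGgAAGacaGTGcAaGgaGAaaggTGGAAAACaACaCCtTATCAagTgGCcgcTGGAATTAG
Tars exon 3: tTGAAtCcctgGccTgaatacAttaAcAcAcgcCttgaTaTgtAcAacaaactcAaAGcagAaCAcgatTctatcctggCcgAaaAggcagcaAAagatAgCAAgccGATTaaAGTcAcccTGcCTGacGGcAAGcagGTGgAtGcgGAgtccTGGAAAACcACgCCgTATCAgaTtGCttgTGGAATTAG
Of the identical bases, 28 lie in the first 95 positions of the exon and 58 in the last 96. The coding length was equal in 17 of the 19 exon pairs, all except exons 1 and 2, and over these 17 the identity was lowest in exon 3 and highest, at 83.1%, in exon 7. The predicted proteins, of 790 residues for Tarsl2 and 722 for Tars, were identical at 506 of 716 aligned residues (70.7%). Between Tarsl2 and the mitochondrial Tars2 the identity was 56.8%, and between Tars and Tars2 it was 55.8%. For comparison, 11 other cytosolic and mitochondrial pairs ranged from 25.9% for Wars and Wars2 to 70.8% for Hars and Hars2. The longest stretch of identical bases shared by the main annotated transcripts of *Tarsl2* and *Tars* was 19, far below a read of the paired-end library. These 2 transcripts therefore shared no stretch of 50 bases. Pairs of their other annotated transcripts were not compared.

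**Figure D1:**
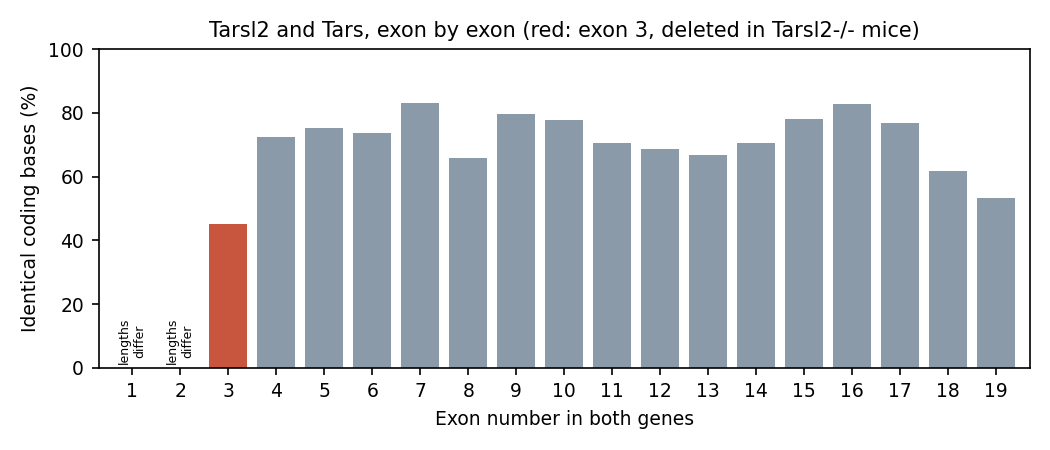
Identical coding bases (%, bars from 0) at the same position of *Tarsl2* and *Tars* for each of the 19 exon numbers, with exon 3 in red and no bar for exons 1 and 2, whose lengths differ. Exon 3, at 45.0%, is the lowest of the 17 bars, and exon 7, at 83.1%, the highest.

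Library totals lay between 16176591 and 20123767 counts, and the 39 genes took between 0.128% and 0.138% of them. Values are CPM (counts scaled to the library total) after TMM scaling, which corrects library sizes by the trimmed mean of log ratios between libraries, and 3 counts correspond to 0.149 to 0.185 CPM. Each gene was tested with edgeR (quasi-likelihood F-test), adjusted by Benjamini-Hochberg over all 15075 tested genes, at a threshold of 0.05. The labelled tissue was checked against marker genes. The 8 skeletal muscle markers summed to at least 61162 CPM in every library, while the 10 retinal markers, checked because the sample records describe an extraction of retina, had at most 7 counts in any library and 4 of them (*Crx*, *Nrl*, *Pde6b* and *Rbp3*) had none. Leukocyte markers also differed by genotype, and red cell and slow fibre markers were compared beside them. Over all 15075 tested genes edgeR called 2.27% and DESeq2 719 genes, and 19.8% had an unadjusted p under 0.05 by edgeR. Of the leukocyte markers, 7 of 7 tested had a lower mean in *Tarsl2*-/- muscle and 3 passed the threshold (*Csf1r*, *Adgre1* and *Cd74*), and the 8 listed summed to 198 to 223 CPM in *Tarsl2*+/+ and 109 to 133 CPM in *Tarsl2*-/- mice, with none at 0. The 6 red cell markers summed to 4748 to 10392 CPM against 4166 to 4536 CPM, with 0 past the threshold in edgeR and limma-voom, 1 (*Slc4a1*) in DESeq2 and 5 at an unadjusted p under 0.05. The 6 slow fibre markers summed to 719 to 1330 CPM against 1024 to 1611 CPM, with 0 past the threshold in these 3 tools and 3 at an unadjusted p under 0.05. The skeletal muscle sum was 61162 to 64954 CPM against 67063 to 78799 CPM, with 3 of 8 genes (*Ckm*, *Myh1* and *Actn3*) past the threshold, all higher. The part of these differences in the synthetase values was not tested, and in bulk tissue fewer cells of a type cannot be told apart from less RNA per cell.

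Few of the synthetase and scaffold mRNAs passed the test. Of the 39 genes, 2 passed the threshold (5.13%, against 2.27% of all tested genes), *Tarsl2*, which was lower, and *Kars*, the lysyl-tRNA synthetase gene, which was higher. Over all tested genes 0.896% were called higher and 1.37% lower, so that without the deleted gene the share called, 1 of 38 (2.63%), was near the background. An unadjusted p under 0.05 was reached by 5 of 39 (12.8%, against 19.8% of all tested genes), namely *Tarsl2*, *Kars*, *Iars2*, *Fars2* and *Sars2*. The values of the 3 mice of each genotype did not overlap in 10 of 39 genes (25.6%, against a background of 24.6%). In 9 of these the *Tarsl2*-/- mice were all higher (23.1%, against 12.6%) and in 1, *Tarsl2*, all lower (2.56%, against 12%). Fold changes are given as *Tarsl2*-/- over *Tarsl2*+/+. Without *Tarsl2*, the median over 38 genes was 0.10 on the log2 scale, and 28 of 38 (73.7%) were positive, or 24 of 38 with upper quartile scaling or library totals, whereas over all tested genes the median was 0.0025 and 50.4% were positive. Their sum lay between 1257 and 1290 CPM in the *Tarsl2*+/+ mice and between 1344 and 1364 CPM in the *Tarsl2*-/- mice, 1.063 times higher on average.

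The precision set how small a difference could be seen. The coefficient of variation among the 3 *Tarsl2*+/+ mice ranged from 0.645% in *Eef1e1* to 25.9% in *Sars2*, with a median of 9.06% over the 39 genes. For 31 of the 39 genes the whole 95% interval of the log2 fold change lay within 0.5 of 0 in either direction, and for 38 of 39 within 1.

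**Figure D2:**
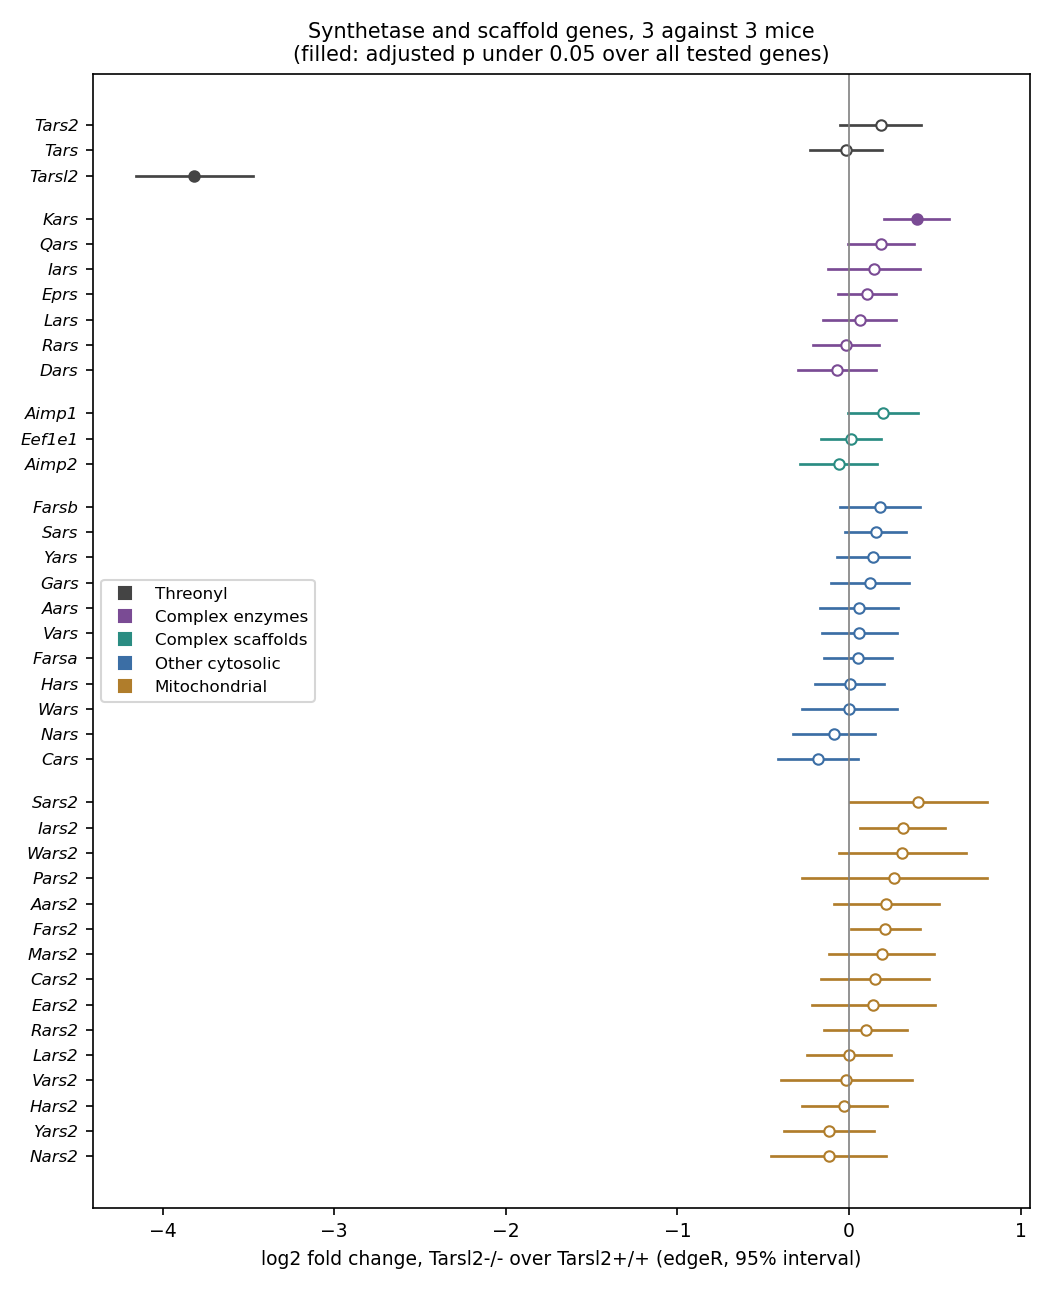
Log2 fold change (*Tarsl2*-/- over *Tarsl2*+/+, points) with its 95% interval (lines) for the 39 genes, by edgeR with 3 mice per genotype, in 5 groups. Only *Tarsl2*, at -3.81, and *Kars*, at 0.40, are filled as past the threshold; the other points lie between -0.18 and 0.40.

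Of the threonyl-tRNA synthetase genes, the targeted gene fell and its relatives did not pass the test. *Tarsl2* was at 26.7, 32.1 and 24.4 CPM in *Tarsl2*+/+ mice 583, 584 and 595 and at 2.23, 1.87 and 1.80 CPM in *Tarsl2*-/- mice 588, 589 and 591, and all values below are given in this order of mice. Every *Tarsl2*-/- mouse was far below every *Tarsl2*+/+ mouse, although 40, 30 and 37 reads were still counted on the gene, whose other exons remain in the genome. The log2 fold change was -3.81 (SE 0.16, adjusted p = 6.45e-07 by edgeR), a mean 14.1 times lower. The end of *Tarsl2* overlaps the span of *Tm2d3* on the same strand by 923 bp, and 73 of 3143 stretches of 50 bases in the main *Tarsl2* transcript (2.32%) also occur in transcripts of *Tm2d3*, which was at -0.11 on the log2 scale (adjusted p = 0.653 by edgeR).

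*Tars*, which charges cytosolic tRNA-Thr, was at 30.1, 27.4 and 33.5 CPM in *Tarsl2*+/+ and 30.3, 30.4 and 29.2 CPM in *Tarsl2*-/- mice. The *Tarsl2*-/- values all lay inside the *Tarsl2*+/+ range, and the log2 fold change was -0.02 (95% interval -0.23 to 0.19, adjusted p = 0.944 by edgeR). *Tars2*, the mitochondrial enzyme (chr3:95739976-95760206), was at 17.4, 16.8 and 16.7 CPM against 19.8, 21.2 and 16.9 CPM. Mice 588 and 589 were above all *Tarsl2*+/+ mice and mouse 591 lay within their range, with a log2 fold change of 0.19 (95% interval -0.05 to 0.42, adjusted p = 0.374 by edgeR).

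Per kilobase of exon, *Tarsl2* made up 25.7%, 31.4% and 22.1% of the sum of *Tarsl2* and *Tars* in *Tarsl2*+/+ muscle and 2.80%, 2.35% and 2.35% in *Tarsl2*-/- muscle. The sum of both was 15.6 ± 0.614 (SD, n = 3) in *Tarsl2*+/+ and 11.7 ± 0.266 CPM per kb in *Tarsl2*-/- muscle, with no overlap between genotypes, while *Tars* itself stood at 11.5 ± 1.16 and 11.4 ± 0.245 CPM per kb. These shares depend on the lengths used, which are unlike in the 2 genes. The table gives *Tarsl2* 6741 bp, all exons of its annotated transcripts together, retained introns included, but gives *Tars* 2636 bp, where the exons annotated in GENCODE vM21 cover 5901 bp. With the longest annotated transcript of each, 3192 bp for *Tarsl2* and 4093 bp for *Tars*, the share of *Tarsl2* was 53.8 ± 5.93% (SD, n = 3) in *Tarsl2*+/+ and 7.76 ± 0.757% in *Tarsl2*-/- muscle. With those lengths the sum was 16.1 ± 0.583 against 7.93 ± 0.208 CPM per kb, and *Tars* stood at 7.41 ± 0.744 and 7.32 ± 0.158 CPM per kb. The last exon of an annotated *Tars* transcript of 4005 bp runs to chr15:11382301, past the table's limit of *Tars* at chr15:11383663. Bases past that limit may hold no counted reads. A length that includes them lowers the *Tars* level and raises the share of *Tarsl2*. Retained introns in the 6741 bp of *Tarsl2* would act the other way, so neither share is settled.

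**Figure D3:**
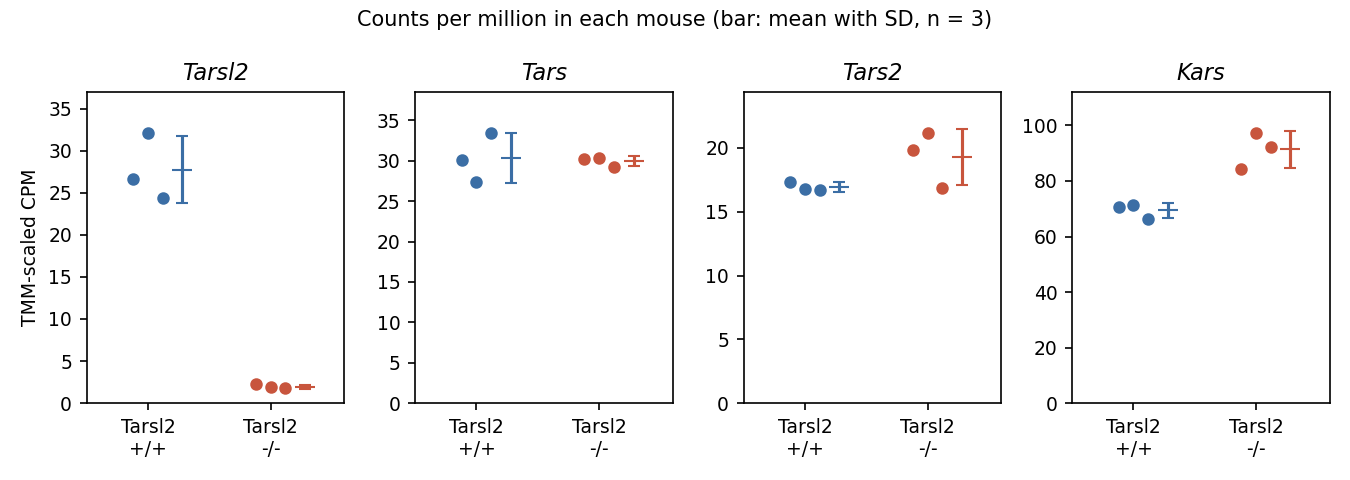
TMM-scaled CPM (axes from 0) of *Tarsl2*, *Tars*, *Tars2* and *Kars* in each of the 3 *Tarsl2*+/+ and 3 *Tarsl2*-/- mice (points), with the mean and SD beside them. The genotypes are apart in *Tarsl2*, which is lower in *Tarsl2*-/- mice, and in *Kars*, which is higher, and overlap in *Tars* and *Tars2*.

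Of the 7 cytosolic synthetases of the complex, *Kars* rose and 6 did not pass the test. *Kars* was at 70.7, 71.3 and 66.4 CPM in *Tarsl2*+/+ mice and 84.4, 97.4 and 92.3 CPM in *Tarsl2*-/- mice. All *Tarsl2*-/- mice were above all *Tarsl2*+/+ mice, the lowest of them, mouse 588, by a gap wider than the whole *Tarsl2*+/+ range. The log2 fold change was 0.40 (SE 0.09, 95% interval 0.21 to 0.58, adjusted p = 0.0400 by edgeR), and the exact two-sided permutation test gave p = 0.1, the smallest that 3 mice against 3 allow. The call stood close to the threshold. It was lost in 5 of the 6 fits that left out 1 mouse, all except the fit without *Tarsl2*+/+ mouse 584, with log2 fold changes from 0.35 to 0.45 and adjusted p from 0.0438 to 0.139 by edgeR, and it was lost with library totals in place of TMM (adjusted p = 0.0641).

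*Kars* (minus strand, chr8:111993443-112011323) encodes both the cytosolic and the mitochondrial lysyl-tRNA synthetase through alternative splicing at its start. The stretches from the start codon to the end of that coding exon are shown because they are what sets the 2 enzymes apart. Capitals mark the start codon, and the stretches lie at chr8:112011210-112011268 for the cytosolic form and at chr8:112008207-112008352 for the mitochondrial form.
Kars, cytosolic form: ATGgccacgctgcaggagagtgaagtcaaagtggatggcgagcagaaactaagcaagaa
Kars, mitochondrial form: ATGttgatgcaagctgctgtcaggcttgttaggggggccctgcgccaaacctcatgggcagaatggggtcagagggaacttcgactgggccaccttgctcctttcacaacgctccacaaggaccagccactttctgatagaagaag
The first gives a protein of 595 residues with 20 of its own at the start, the second one of 624 residues with 49 of its own, and the remaining 575 are common to both. One count per gene sums the 2 forms, so that the higher *Kars* count was not assigned to either.

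The other complex enzymes lay closer to their *Tarsl2*+/+ level. *Qars*, the glutaminyl-tRNA synthetase gene, was at 58.1, 53.8 and 60.4 CPM against 61.9, 63.4 and 70.3 CPM. *Eprs*, which encodes the joined glutamyl- and prolyl-tRNA synthetase, was at 70.3, 69.9 and 69.2 CPM against 76.9, 73.3 and 74.9 CPM. Neither gene overlapped between genotypes, with *Tarsl2*-/- values on the higher side, and neither passed the threshold. By edgeR *Qars* differed by 0.18 on the log2 scale (adjusted p = 0.272) and *Eprs* by 0.11 (adjusted p = 0.485). *Iars*, for isoleucine, was at 21.9, 18.4 and 23.7 CPM against 26.2, 24.2 and 20.7 CPM. *Lars*, for leucine, was at 22.7, 20.8 and 20.3 CPM against 24.0, 21.0 and 21.5 CPM. These 2 genes overlapped between genotypes, and by edgeR they differed by 0.15 (*Iars*, adjusted p = 0.550) and 0.06 (*Lars*, adjusted p = 0.780) on the log2 scale. *Rars*, for arginine, was at 35.4, 32.2 and 37.1 CPM against 33.7, 34.9 and 34.9 CPM. *Dars*, for aspartate, was at 80.7, 68.4 and 87.9 CPM against 80.6, 72.9 and 72.3 CPM. By edgeR they differed by -0.02 (*Rars*, adjusted p = 0.946) and -0.07 (*Dars*, adjusted p = 0.757), with every *Rars* value of *Tarsl2*-/- mice inside the *Tarsl2*+/+ range. The median log2 fold change over the 7 enzymes was 0.11.

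None of the 3 scaffold genes passed the threshold in edgeR, DESeq2 or limma-voom, and none had an unadjusted p under 0.05. *Aimp1*, which encodes the p43 scaffold, was at 95.8, 100.5 and 116.3 CPM in *Tarsl2*+/+ and 123.4, 115.1 and 120.3 CPM in *Tarsl2*-/- mice. Only *Tarsl2*+/+ mouse 595 reached the *Tarsl2*-/- range, and the log2 fold change was 0.20 (95% interval -0.01 to 0.40, adjusted p = 0.267 by edgeR). *Aimp2*, the p38 scaffold, was at 101.8, 105.1 and 83.9 CPM against 88.0, 91.8 and 99.0 CPM, and *Eef1e1*, the p18 scaffold, at 47.0, 47.0 and 47.5 CPM against 49.9, 46.5 and 46.3 CPM. Both overlapped between genotypes, at -0.06 for *Aimp2* (adjusted p = 0.791 by edgeR) and 0.01 for *Eef1e1* (adjusted p = 0.960 by edgeR) on the log2 scale. *Eef1e1* varied among *Tarsl2*+/+ mice by less than most genes, and its interval of -0.16 to 0.19 was among the narrower ones.

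**Figure D4:**
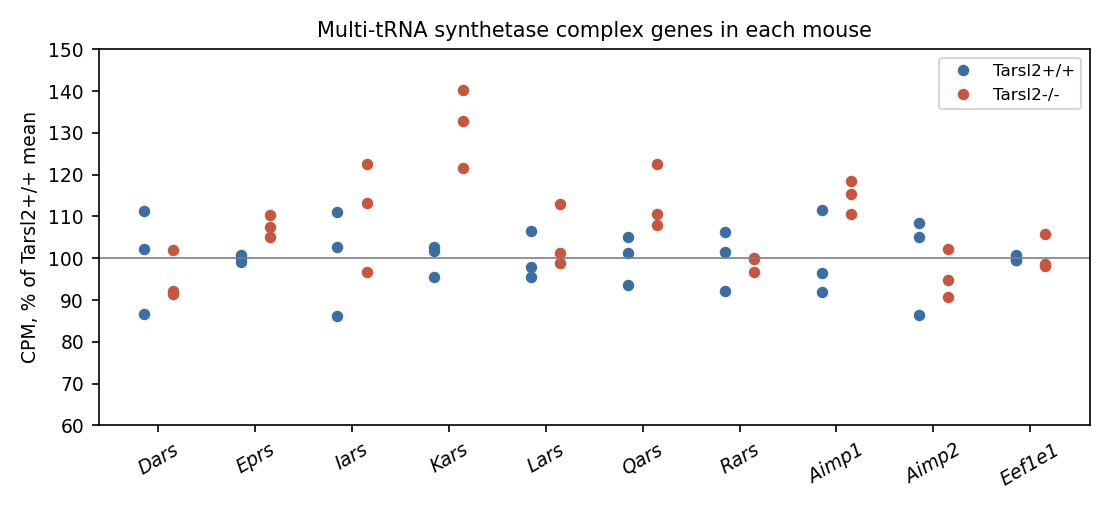
CPM of the 7 complex enzymes and 3 scaffolds in each mouse as a percentage of the *Tarsl2*+/+ mean of the same gene (linear axis from 60% to 150%, line at 100%), with 3 *Tarsl2*+/+ (blue) and 3 *Tarsl2*-/- (red) mice. *Kars* in *Tarsl2*-/- mice lies between 121.5% and 140.3%, above every other gene's *Tarsl2*+/+ value. The highest *Tarsl2*-/- values of *Iars* (122.7%) and *Qars* (122.4%) reach into that range. *Dars*, *Rars*, *Aimp2* and *Eef1e1* stay within 91% to 106% in *Tarsl2*-/- mice.

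Of the 11 free cytosolic synthetases, those outside the complex, 0 passed the threshold in edgeR, DESeq2 or limma-voom and 0 had an unadjusted p under 0.05. Their log2 fold changes ran from -0.18 for *Cars*, for cysteine, to 0.18 for *Farsb*, the beta subunit of the phenylalanine enzyme, with a median of 0.06 and 9 of 11 positive (81.8%, against 50.4% of all tested genes). In 3 of 11 the genotypes did not overlap (27.3%, against 24.6%), all with higher values in *Tarsl2*-/- mice (against 12.6%). *Sars*, for serine, was at 93.2, 93.9 and 100.2 CPM against 106.0, 102.3 and 111.5 CPM, a log2 fold change of 0.16 (adjusted p = 0.323 by edgeR). *Yars*, for tyrosine, was at 28.6, 28.9 and 25.1 CPM against 29.2, 32.4 and 29.4 CPM, a log2 fold change of 0.14 (adjusted p = 0.457 by edgeR). *Farsa*, the alpha subunit of the phenylalanine enzyme, was at 19.1, 19.2 and 18.9 CPM against 19.3, 19.3 and 20.7 CPM, a log2 fold change of 0.05 (adjusted p = 0.795 by edgeR). The gaps between genotypes in *Yars* and *Farsa* were small beside the spread within a genotype. *Nars* (asparagine) and *Hars* (histidine), among the 3 most abundant of the 39 genes per kilobase of the table's exon length, were at 100.5, 87.1 and 108.7 CPM against 104.2, 91.3 and 83.8 CPM and at 43.2, 38.8 and 39.8 CPM against 44.7, 38.4 and 39.02 CPM. Both overlapped between genotypes, at -0.09 for *Nars* (adjusted p = 0.714 by edgeR) and 0.0036 for *Hars* (adjusted p = 0.991 by edgeR) on the log2 scale.

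Of the 16 mitochondrial synthetases, 0 passed the threshold in edgeR, DESeq2 or limma-voom, and 3 had an unadjusted p under 0.05 (18.8%, against 19.8% of all tested genes). *Iars2*, for isoleucine, was at 27.2, 32.2 and 25.2 CPM in *Tarsl2*+/+ and 32.9, 38.8 and 33.5 CPM in *Tarsl2*-/- mice, a log2 fold change of 0.31 (adjusted p = 0.156 by edgeR). *Fars2*, for phenylalanine, was at 25.6, 26.5 and 27.5 CPM against 28.3, 31.2 and 32.6 CPM, a log2 fold change of 0.21 (adjusted p = 0.228 by edgeR). *Sars2*, for serine, was at 8.54, 7.81 and 5.04 CPM against 10.1, 9.36 and 8.75 CPM, a log2 fold change of 0.40 (adjusted p = 0.248 by edgeR). In these 3 genes the *Tarsl2*-/- mice were all above the *Tarsl2*+/+ mice, in *Sars2* with mouse 595 well below its group. The 3 least abundant genes per length, *Mars2* for methionine, *Pars2* for proline and *Wars2* for tryptophan, had log2 fold changes of 0.19, 0.26 and 0.31, all with overlapping genotypes. *Mars2* was at 6.43, 7.49 and 6.88 CPM against 7.80, 8.86 and 7.14 CPM, *Pars2* at 1.93, 1.86 and 2.73 CPM against 2.23, 3.12 and 2.53 CPM, and *Wars2* at 4.85, 5.42 and 4.51 CPM against 5.02, 6.74 and 6.61 CPM. With so few reads the interval of *Pars2*, -0.28 to 0.81, was the widest of the 39.

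The median log2 fold change over the 16 mitochondrial genes was 0.17 with 12 of 16 positive, and over the 22 cytosolic genes without *Tarsl2* 0.06 with 16 of 22 positive. Summed per kilobase, the mitochondrial synthetases were at 40.0, 39.7 and 39.8 CPM per kb in *Tarsl2*+/+ mice and 43.2, 44.9 and 40.8 CPM per kb in *Tarsl2*-/- mice. The cytosolic synthetases, *Tarsl2* included, were at 210.5, 202.4 and 214.1 CPM per kb against 219.7, 213.0 and 210.6 CPM per kb. The mitochondrial sums did not overlap between genotypes and these cytosolic sums did. The deleted gene itself is part of the cytosolic sum, at 4.11 CPM per kb in *Tarsl2*+/+ and 0.292 in *Tarsl2*-/- mice on average. Without *Tarsl2* and without division by length, the 19 other cytosolic synthetases summed to 802 to 846 CPM against 870 to 886 CPM, with no overlap. With *Tarsl2* and per kilobase, the cytosolic sum was 5.25 ± 0.137 times (SD, n = 3) the mitochondrial one in *Tarsl2*+/+ muscle. In *Tarsl2*-/- muscle it was 4.997 ± 0.219 times the mitochondrial one, with overlapping ranges. *Kars* and *Gars*, for lysine and glycine, each encode both the cytosolic and the mitochondrial enzyme and are counted here in the cytosolic sum. By catalytic fold, the 17 class I enzymes had a median log2 fold change of 0.10 and the 17 class II enzymes without *Tarsl2* one of 0.12. The differences between the medians of these groups were not tested.

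Levels of different genes were compared as CPM per kilobase of exon. In *Tarsl2*+/+ muscle *Aimp2* was highest, at 58.6 ± 6.91 CPM per kb (SD, n = 3), followed by *Nars* at 37.5 ± 4.14 and *Hars* at 20.4 ± 1.16 CPM per kb. The lowest were *Wars2* at 0.829 ± 0.0768, *Pars2* at 0.702 ± 0.156 and *Mars2* at 0.614 ± 0.0471 CPM per kb, so that the range was 95.5-fold. Only 10 of the 38 neighbouring pairs in this order did not overlap among the *Tarsl2*+/+ mice. *Aimp2*, *Nars* and *Hars* were each apart from the gene below them, whereas *Sars*, *Aimp1* and *Dars*, at 18.6, 18.6 and 18.1 CPM per kb, did not differ beyond their spread. The lowest 4, from *Ears2* down to *Mars2*, also overlapped pair by pair. *Tarsl2* took rank 21 of 39 at 4.11 ± 0.593 CPM per kb in *Tarsl2*+/+ muscle and rank 39 at 0.292 ± 0.0343 CPM per kb in *Tarsl2*-/- muscle, below every mitochondrial enzyme. The order depends on the length. The table's lengths of *Nars*, 2632 bp, and *Hars*, 1987 bp, are also shorter than their exons in vM21, 4355 and 2447 bp, whereas 34 of the 39 genes have the same length in both. With the longest transcript as the length *Aimp2* stayed first and *Mars2* and *Pars2* last, but *Dars* rose from rank 6 to 2, *Nars* moved from 2 to 3, *Hars* fell from 3 to 7 and *Ears2* took the place of *Wars2* among the lowest 3. *Tarsl2* moved to rank 16, *Tars* from 11 to 19 and *Eprs* from 23 to 13. The upper ranks hold cytosolic enzymes and scaffolds, and the highest mitochondrial gene was *Yars2*, at rank 14.

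**Figure D5:**
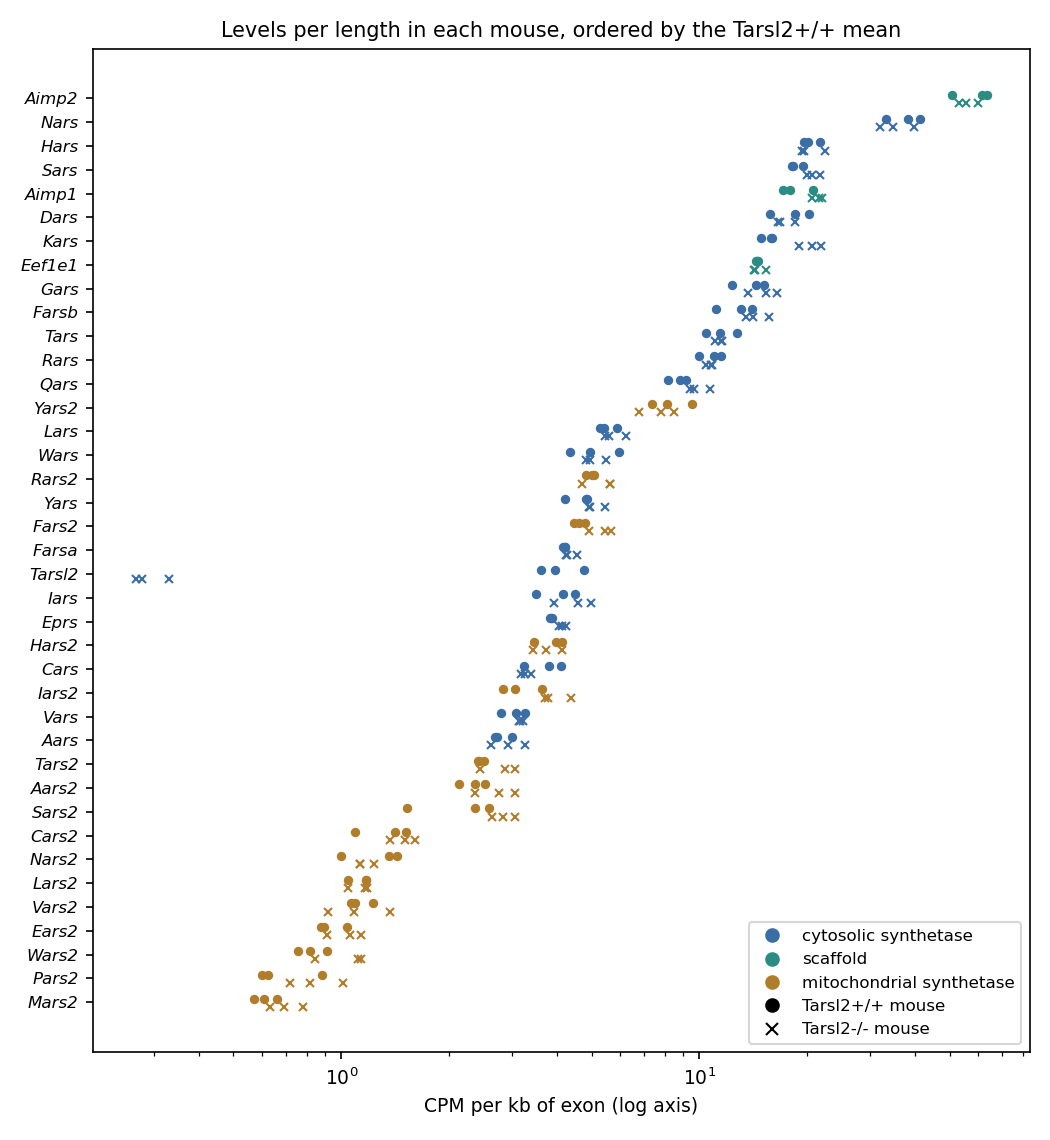
Level of the 39 genes in CPM per kb of exon (log axis) in each *Tarsl2*+/+ mouse (dots) and *Tarsl2*-/- mouse (crosses), ordered by the *Tarsl2*+/+ mean and coloured as cytosolic synthetase, scaffold or mitochondrial synthetase. *Tarsl2* is the gene whose crosses lie far from its dots, at 0.292 against 4.11 CPM per kb on average.

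Reads of some genes could have been counted on another. By the gene spans of the table, introns included, 21 of the 39 genes overlap another gene. Among the overlapping genes are small RNAs and pseudogenes without a read in any library. By the sequence of the main annotated transcript, 8 of the 39 share at least 5% of their 50-base stretches with transcripts of another gene. The shared part was 38.6% for *Aimp2* with *Eif2ak1*, 36.6% for *Iars2* with *Rab3gap2*, 22.4% for *Aars* with *Exosc6*, 17.8% for *Cars2* with *Naxd*, 10.1% for *Farsb* with *Sgpp2*, 8.61% for *Iars* with *Gm4849*, 7.53% for *Hars* with *Hars2* and 6.30% for *Nars2* with *C230038L03Rik*, so the levels of these 8 genes are uncertain. *Fars2* overlaps *Lyrm4* and *Nrn1* on the opposite strand and shared 3.18%. *Kars* and *Tars2* shared none and *Tars* 0.278%. The use of strand in the counting is not given in the sources used here, and without strand the reads of genes on opposite strands cannot be told apart.

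Genes of neighbouring steps were taken from lists of 24 symbols. *Mars1*, a second symbol of *Mars*, was absent from the count table, and *Aarsd1* had at most 2 counts in any library. The other 22 were tested. Of these 0 passed the threshold in edgeR and limma-voom and 1 (*Eef1a2*) in DESeq2. Over all 15075 tested genes edgeR called 2.27%, and DESeq2 called 719 genes. An unadjusted p under 0.05 was reached by 4 of 22 (18.2%, against 19.8%), 15 of 22 were positive (68.2%, against 50.4%), and the median log2 fold change was 0.07. *Qrsl1*, a subunit of the amidotransferase that makes mitochondrial glutaminyl-tRNA, for which no separate mitochondrial synthetase exists, was at 8.83, 8.29 and 8.24 CPM in *Tarsl2*+/+ and 11.2, 12.04 and 11.3 CPM in *Tarsl2*-/- mice. The genotypes did not overlap, with a log2 fold change of 0.45 (adjusted p = 0.0659 by edgeR), whereas its partner subunits *Gatb* and *Gatc* had -0.13 and 0.08. *Eef1a2*, the muscle form of the factor that carries aminoacyl-tRNA to the ribosome, was at 664, 777 and 683 CPM against 927, 800 and 950 CPM, a log2 fold change of 0.33 (adjusted p = 0.116 by edgeR). *Eef1a1*, the form of most other tissues, had more CPM in every mouse, at 4748.1, 4590.5 and 5357.2 against 4928.1, 5070.5 and 5421.2. Its log2 fold change was 0.07. *Sepsecs*, which makes selenocysteinyl-tRNA, and *Prorsd1*, a homologue of bacterial editing domains for mischarged tRNA, differed by 0.31 (*Sepsecs*, adjusted p = 0.156) and -0.29 (*Prorsd1*, adjusted p = 0.173) on the log2 scale by edgeR. The synthetase gene *Mars*, not among the 39, differed by 0.17 (adjusted p = 0.349) on the same scale by edgeR.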

How the data were processed

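Counts of reads per gene, without normalization, were deposited by the authors for 6 muscle libraries (3 *Tarsl2*+/+, 3 *Tarsl2*-/-). The paper describes TruSeq stranded mRNA libraries, mapping with HISAT2 to mm10 (GRCm38) and testing with DESeq2. The submitters' processing notes name Bowtie 0.12.2 and mm8 instead. The counting tool, annotation and strand setting are not given in the sources used here. Of the Ensembl identifiers found in GENCODE vM21, 95.2% had the same coordinates there, as had 34 of the 39 genes. Exons and sequences are those of GENCODE vM21 on GRCm38, and gene positions and exon lengths those of the table unless stated.

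Genes were kept by filterByExpr (minimum count 10, minimum total 15), scaled by TMM in edgeR 4.0.16 (R 4.3.3) and tested by glmQLFTest with genotype as single factor, with Benjamini-Hochberg adjustment over 15075 genes. Standard errors are the size of the log2 fold change over the square root of its F statistic. Proteins translated from the annotated transcripts were aligned with Biopython 1.88 (BLOSUM62, gap scores -10 and -0.5). Alternatives were DESeq2 1.42.0, limma-voom (limma 3.58.1), RLE, upper quartile, library totals, no filter beyond 1 count, at least 10 counts in every library, each mouse left out in turn, and the longest transcript as length. The procedure was tested on simulated data. The 39 genes and all lists were chosen with earlier results of these data known. Of the 39 genes, values in every mouse are given for the threonyl, complex and scaffold genes. They are also given for those of the 39 with an unadjusted p under 0.05 or non-overlapping genotypes. The 3 most and 3 least abundant of the 39 per length are given in the same way. Intervals do not cover differences between litters or dissections. Some results for single genes outside the 39 are not reported here.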

Additional observations from a re-analysis of the deposited data

How the results depend on the processing

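No paired analysis was made, because the labels give no litter by which mice of the 2 genotypes could be paired. *Tarsl2* was called in all 13 alternatives. *Kars* was called in 6 of 7 alternatives that kept all mice. With library totals it was not, at 0.38 (adjusted p = 0.0641 by edgeR), leaving 1 gene of the 39 past the threshold. With each mouse left out, between 1 and 2 genes of the 39 passed, and *Kars* ranged from 0.35 to 0.45. Over all tested genes, DESeq2 called 719 (310 higher, 409 lower, with 340 of the 342 among them), and no filter 1437 (611 higher, 826 lower). Leaving out a mouse gave from 81 (without *Tarsl2*+/+ mouse 583) to 625 genes (without *Tarsl2*+/+ mouse 584), from 31 to 242 higher and from 50 to 383 lower. The cause was not tested.

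The sign of 12 uncalled genes turned under some setting. *Lars2* (0.00011) was -0.0012 with DESeq2, -0.0018 with limma-voom, -0.0011 with RLE, -0.022 with upper quartile, -0.018 with library totals, -0.0036 without a filter and -0.0028 with the stricter filter. With upper quartile and library totals *Hars* was -0.018 and -0.014, *Wars* -0.018 and -0.014, and *Eef1e1* -0.0099 and -0.0045, and *Wars* was -0.00070 without a filter. With each mouse left out, *Lars2* ranged from -0.055 to 0.052, *Hars* from -0.068 to 0.045, *Wars* from -0.10 to 0.14, *Eef1e1* from -0.023 to 0.030, *Vars* from -0.0014 to 0.11 and *Hars2* from -0.10 to 0.035. *Aimp2* ranged from -0.16 to 0.0027, *Vars2* from -0.18 to 0.11, *Tars* from -0.086 to 0.057, *Dars* from -0.16 to 0.012, *Rars* from -0.070 to 0.028 and *Aars* from -0.019 to 0.14. Upper quartile scaling moved the median of all genes by -0.022.

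With 3 mice per genotype, the 95% interval reached beyond 0.5 on the log2 scale in 8 of the 39 genes, *Tarsl2* and *Kars* among them.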
